A study of Mus musculus with 60 samples.

Results

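Interneuron marker genes were examined in 3 brain regions of mice that lacked Glo1, ate too little vitamin B6 (VB6), or both. The 9 genes were taken by symbol from the count and RPKM tables, out of 21999 genes in all, and each was present once. They were the calcium-binding proteins Pvalb, Calb1 and Calb2, the neuropeptides Sst, Npy, Vip and Cck, the secreted glycoprotein Reln and the transcription factor Lhx6. All 9 passed the low-count filter in each region.

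The study crossed genotype, wild type (WT) or a knockout (KO) of Glo1, with diet in 20 mice, and the prefrontal cortex, striatum and hippocampus of each mouse gave 1 poly(A) RNA-seq library per region, 60 in all. Between weeks 8 and 12 of age the chow contained 1.4 mg (normal) or 5 µg (lacking) of the vitamin per 100 g. Each of the 4 combinations (WT normal, WT lacking, KO normal, KO lacking) held 5 mice, which makes 12 groups of 5 libraries. Strain, sex and the design of the knockout allele were not given in the sources used here. All 30 KO libraries carried batch number 1 and all 30 WT libraries batch number 2, so genotype and batch cannot be told apart, whereas comparisons between diets lie within a batch.

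GABAergic interneurons are inhibitory neurons with local axons, and most cortical and hippocampal ones arise in the medial or the caudal ganglionic eminence of the embryo. Lhx6 specifies those of the medial eminence, which later express Pvalb (fast-spiking basket and chandelier cells) or Sst (dendrite-targeting cells), while Vip cells and many Cck, Calb2 and Reln cells come from the caudal eminence. VB6, as pyridoxal phosphate, is the cofactor of the enzymes that make GABA, and Glo1 detoxifies methylglyoxal. Several of the markers are not restricted to interneurons: Cck is also made by pyramidal cells, Calb1 by striatal projection neurons and dentate granule cells, and Calb2 by hippocampal mossy cells. In such bulk tissue, fewer cells of a type and less RNA per cell cannot be told apart.

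Libraries held between 7640047 and 13928265 counts, with RNA integrity numbers (RIN) between 7.6 and 9.3. Glo1, the check of the genotype labels, had 0 to 10 counts in the 30 KO libraries and 299 to 734 in the 30 WT libraries. Tissue markers followed the labels: the summed RPKM of 6 medium spiny neuron markers had a striatal median of 885, against 24.5 in cortex and 19.4 in hippocampus, and that of 5 hippocampal principal neuron markers 52.6 in the hippocampus against 1.41 and 1.80 elsewhere. Of 3 markers of cholinergic neurons, the median sum was 20.6 in the striatum and under 1 in the other regions. The sum of 4 choroid plexus markers varied widely among hippocampal libraries, from 5.37 to 1229 RPKM with a median of 29.9. Its highest values by group were 857 RPKM (WT normal), 1010 (WT lacking), 1229 (KO normal) and 293 (KO lacking). The part of this in the hippocampal values of the members was not tested.

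The promoters of the peptide genes Sst, Cck and Vip are shown first. Somatostatin transcription is the textbook case of control through the cAMP response element. Each line is the 300 bases from 250 before to 50 after a RefSeq transcription start (GRCm38.p6), 5′ to 3′ on the strand of the gene, with the letters of a cAMP response element or its core, and for Vip also TATA boxes, in capitals.

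Sst, chr16:23890795-23891094, minus strand: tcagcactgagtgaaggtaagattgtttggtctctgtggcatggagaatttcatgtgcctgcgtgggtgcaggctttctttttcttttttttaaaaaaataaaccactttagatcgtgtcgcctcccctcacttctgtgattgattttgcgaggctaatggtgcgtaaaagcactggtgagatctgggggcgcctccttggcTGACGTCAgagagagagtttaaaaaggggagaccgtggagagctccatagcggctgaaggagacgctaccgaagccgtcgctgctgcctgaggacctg
Cck, chr9:121495645-121495944, minus strand: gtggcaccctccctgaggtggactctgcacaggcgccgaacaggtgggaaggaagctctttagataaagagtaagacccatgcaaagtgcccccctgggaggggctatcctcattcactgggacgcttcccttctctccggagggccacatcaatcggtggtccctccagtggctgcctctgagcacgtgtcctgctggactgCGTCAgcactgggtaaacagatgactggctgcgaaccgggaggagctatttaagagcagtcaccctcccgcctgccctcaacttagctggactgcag
Vip, chr10:5638968-5639267, plus strand: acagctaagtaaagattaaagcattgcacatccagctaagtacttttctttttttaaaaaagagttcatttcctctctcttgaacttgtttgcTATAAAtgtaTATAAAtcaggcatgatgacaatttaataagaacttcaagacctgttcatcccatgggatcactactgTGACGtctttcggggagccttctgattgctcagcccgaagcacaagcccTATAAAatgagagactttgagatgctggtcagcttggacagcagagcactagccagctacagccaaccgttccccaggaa

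The palindrome TGACGTCA began 48 bases before the Sst start, and 1.79% of 32851 mouse promoter windows of this length held it on either strand. Its core TGACG, searched on both strands and contained in the palindrome, began 47 bases before the Cck start on the opposite strand and 79 bases before the Vip start. It occurred in 20.8% of windows. TATAAA, searched on both strands and held by 13.6% of windows, began 30 bases before the Vip start, with 2 further matches upstream. A window was available for 7 of the 9 members (none for Calb1 or Calb2). The windows of Npy, Pvalb and Reln held none of these letters, and 1 of the 3 Lhx6 windows held TATAAA on the opposite strand, 3 bases past the start. A match of letters is a description and shows no binding.

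Across regions, Pvalb, Sst, Vip, Cck and Calb2 were lowest in the striatum, and Calb1 and Reln were highest there. In an edgeR quasi-likelihood fit of all 60 libraries, a gene was called when its Benjamini-Hochberg (BH) adjusted p over all 13930 genes tested was under 0.05. Of the 9 members, 8 were called between prefrontal cortex and striatum (6 higher and 2 lower in cortex), where 69.9% of all genes tested were called (34% higher, 35.9% lower). Likewise 8 were called between prefrontal cortex and hippocampus (7 higher, 1 lower; 59.3% of all genes, 29.1% higher and 30.2% lower) and 7 between striatum and hippocampus (2 higher, 5 lower; 66.4% of all genes, 33.6% and 32.9%). With so many genes called, these counts say little about the members. Without TMM scaling, 5 members rather than 8 passed between cortex and hippocampus, since Pvalb, Sst and Lhx6 did not. With limma Sst (adjusted p = 0.125) and Lhx6 (adjusted p = 0.109) did not pass, and in WT mice on the normal diet alone Pvalb (adjusted p = 0.135, edgeR) and Lhx6 (adjusted p = 0.102, edgeR) did not. The sizes differed more: the median absolute log2 difference of the members was 1.73 between cortex and striatum, against 0.30 over all genes, 0.27 against 0.21 between cortex and hippocampus, and 1.62 against 0.26 between striatum and hippocampus.

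**Figure D1:**
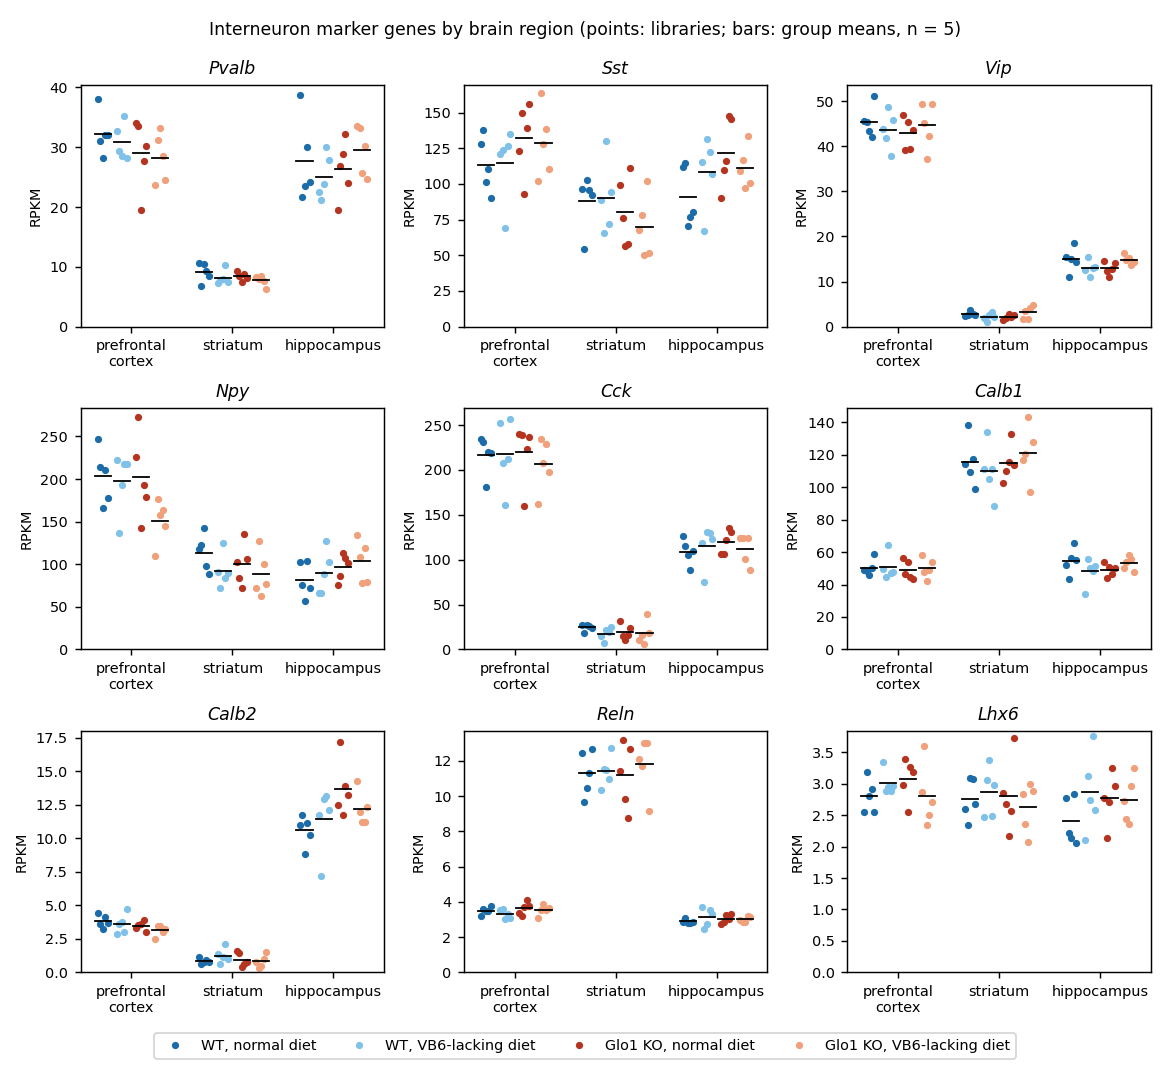
Level in RPKM (counts relative to gene length and to the library total, linear axis from 0) of the 9 genes in 60 libraries, by region on the horizontal axis and by genotype and diet in colour; points are libraries, black bars are means of 5. Vip and Cck lie far apart between cortex and striatum, Calb1 and Reln are highest in the striatum, and the 4 colours overlap within each region for each gene.

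Pvalb, the parvalbumin gene of fast-spiking interneurons (chr15:78191114-78206400, minus strand; all gene coordinates on GRCm38), had a striatal level of 6.25 RPKM at the lowest, 8.23 at the median and 10.7 at the highest over 20 libraries. In the prefrontal cortex the corresponding values were 19.5, 30.6 and 38.0 RPKM, and in the hippocampus 19.5, 26.3 and 38.7 RPKM. Every cortical and hippocampal library thus lay above every striatal one, while cortex and hippocampus overlapped. The fold difference was 3.54 between cortex and striatum (adjusted p = 5.93e-31, edgeR) and 1.15 between cortex and hippocampus (adjusted p = 0.00680), the latter with cortex higher in 13 of 20 mice.

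Calb1, the calbindin gene (chr4:15881264-15908064, plus strand), ran the other way. Striatal libraries lay between 88.6 and 143 RPKM with a median of 114, those of the prefrontal cortex between 42.4 and 64.0 with a median of 48.5, and those of the hippocampus between 34.2 and 65.7 with a median of 51.3. All striatal values were above all others, by 2.34-fold over cortex and 2.39-fold over hippocampus (adjusted p = 4.64e-25 and 1.71e-25, edgeR). Between cortex and hippocampus the log2 difference was 0.03 (95% interval -0.10 to 0.16), and its sign turned without TMM scaling and in a limma fit.

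Calb2, the calretinin gene (chr8:110137502-110168210, minus strand), was a hippocampal gene in these tissues. Its levels were 7.17, 11.9 and 17.2 RPKM (lowest, median, highest) in the hippocampus, 2.50, 3.48 and 4.74 in the prefrontal cortex and 0.343, 0.852 and 2.15 in the striatum. The 3 regions did not overlap at all. Hippocampus exceeded striatum 11.5-fold (log2 difference 3.53 in size, SE 0.110) and cortex 3.27-fold, although the striatal value rests on as few as 5 counts in a library.

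Sst, the somatostatin gene (chr16:23889573-23890958, minus strand), was abundant in every region and differed less between regions than Vip or Cck. It lay between 69.2 and 163 RPKM in the prefrontal cortex (median 125), between 50.1 and 130 in the striatum (median 83.2) and between 67.2 and 148 in the hippocampus (median 111). All 3 ranges overlapped. Cortex was higher than striatum in 17 of 20 mice (log2 0.56, adjusted p = 2.36e-07, edgeR) and higher than hippocampus in 16 of 20 (log2 0.24, adjusted p = 0.0186), and striatum was below hippocampus (log2 -0.32, adjusted p = 0.00189). In the 15 libraries of WT mice on the normal diet alone, the Sst difference between striatum and hippocampus was 0.03 in log2, with the sign turned, and that between cortex and striatum was 0.36 (adjusted p = 0.0536, edgeR).

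Npy, the neuropeptide Y gene (chr6:49822710-49829507, plus strand), is expressed by many Sst interneurons. Cortical values ran from 110 to 273 RPKM (median 186), striatal ones from 63.4 to 143 (median 94.5) and hippocampal ones from 57.3 to 135 (median 94.9). Cortex exceeded striatum in 20 of 20 mice and hippocampus in 19 of 20, by 1.88-fold and 2.10-fold (adjusted p = 7.69e-13 and 4.38e-15, edgeR). Striatum and hippocampus did not differ beyond the threshold (log2 0.16, 95% interval -0.03 to 0.35, adjusted p = 0.140), but within WT mice on the normal diet the difference was 0.54 (adjusted p = 0.00874, edgeR).

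Vip, the vasoactive intestinal peptide gene (chr10:5639218-5647617, plus strand), had the widest regional range. Its values were 37.1, 44.5 and 51.04 RPKM (lowest, median, highest) in the prefrontal cortex, 10.96, 14.3 and 18.6 in the hippocampus and 1.05, 2.53 and 4.88 in the striatum. No 2 regions overlapped. Cortex exceeded striatum 17.1-fold (log2 4.09, SE 0.092, adjusted p = 7.85e-44, edgeR) and hippocampus 3.30-fold.

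Cck, the cholecystokinin gene (chr9:121489824-121495694, minus strand), showed the same order. It lay between 160 and 256 RPKM in the prefrontal cortex (median 222), between 75.2 and 135 in the hippocampus (median 121) and between 6.21 and 39.7 in the striatum (median 18.9). Again no 2 regions overlapped, and cortex was 10.7-fold above striatum and 1.96-fold above hippocampus (adjusted p = 9.59e-35 and 1.38e-12, edgeR). Striatal Cck had the largest relative spread of the peptides, with an SD of 42.2% of its mean, and it followed the markers of excitatory neurons.

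Reln, the reelin gene (chr5:21884454-22344702, minus strand), was 3.32-fold higher in striatum than in cortex and 3.999-fold higher than in hippocampus (adjusted p = 2.35e-41 and 1.68e-44, edgeR). Striatal libraries held 8.78, 11.5 and 13.2 RPKM (lowest, median, highest), cortical ones 3.02, 3.53 and 4.13, and hippocampal ones 2.46, 2.94 and 3.71. The striatal range was separate from both others. Antisense gene Gm10475 shares 246 of the 23738 exon bases of Reln in GENCODE M21, and the strand setting of the counting was not given in the sources used here.

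Lhx6, the transcription factor of medial eminence interneurons (chr2:36081953-36105408, minus strand), was the one member with nearly equal levels everywhere. Medians were 2.90 RPKM (prefrontal cortex), 2.76 (striatum) and 2.74 (hippocampus), with ranges of 2.35 to 3.60, 2.07 to 3.73 and 2.05 to 3.75. The ranges overlapped almost wholly. Cortex and striatum differed by 0.05 in log2 (95% interval -0.08 to 0.19, adjusted p = 0.490, edgeR), striatum and hippocampus by 0.12 (interval -0.01 to 0.26, adjusted p = 0.104), and cortex and hippocampus by 0.17 (adjusted p = 0.0210). The last call was lost in 4 of 20 fits without 1 mouse (225, 244, 268 or 273), and the one before it was gained without mouse 246 (adjusted p = 0.0311).

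Per length, the order of mean levels in the prefrontal cortex was Cck (215 RPKM), Npy (189), Sst (122), Calb1 (50.04), Vip (44.2), Pvalb (30.1), then Calb2 and Reln (both 3.50) and Lhx6 (2.92). In the striatum Calb1 (115) came first, then Npy (98.6), Sst (82.1), Cck (19.9), Reln (11.4), Pvalb (8.37), Lhx6 (2.77), Vip (2.58) and Calb2 (0.972). The hippocampal order was Cck (114), Sst (108), Npy (93.2), Calb1 (51.2), Pvalb (27.1), Vip (13.9), Calb2 (12.0), Reln (3.02) and Lhx6 (2.696). Of neighbours in these orders, 6 pairs lay closer than either SD over 20 libraries. In the cortex they were Cck and Npy (SD 29.5 and 40.5 RPKM) and Calb2 and Reln (0.539 and 0.290), in the striatum Npy and Sst (23.3 and 22.5) and Lhx6 and Vip (0.406 and 0.935), and in the hippocampus Cck and Sst (16.3 and 22.8) and Sst and Npy (SD of Npy 21.8). These ranks use the gene lengths behind the deposited RPKM, which are shorter than the GENCODE M21 exon unions for Sst (599 against 721 bases), Vip (1527 against 3402) and Cck (685 against 1305) and equal to them for the other 6 genes. Scaled to the exon unions, cortical Cck would be at 113 RPKM, below Npy, and cortical Vip at 19.8, below Pvalb. Hippocampal Cck would be at 59.9 RPKM, below Npy (93.2) and Sst (89.8). Sst would thus lie below Npy there, and hippocampal Vip, at 6.26 RPKM, below Calb2. Striatal Cck would be at 10.5 RPKM, below Reln. The order within each of these pairs thus depends on the length used.

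Counting the members whose 20 values in one region did not overlap the 20 in another gave 6 of 9 between cortex and striatum (Pvalb, Vip, Cck, Calb1, Calb2, Reln), against 18.3% of all genes tested. Between cortex and hippocampus it gave 3 (Vip, Cck, Calb2), against 10.9%, and between striatum and hippocampus the same 6 as for cortex and striatum, against 16.2%.

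**Figure D2:**
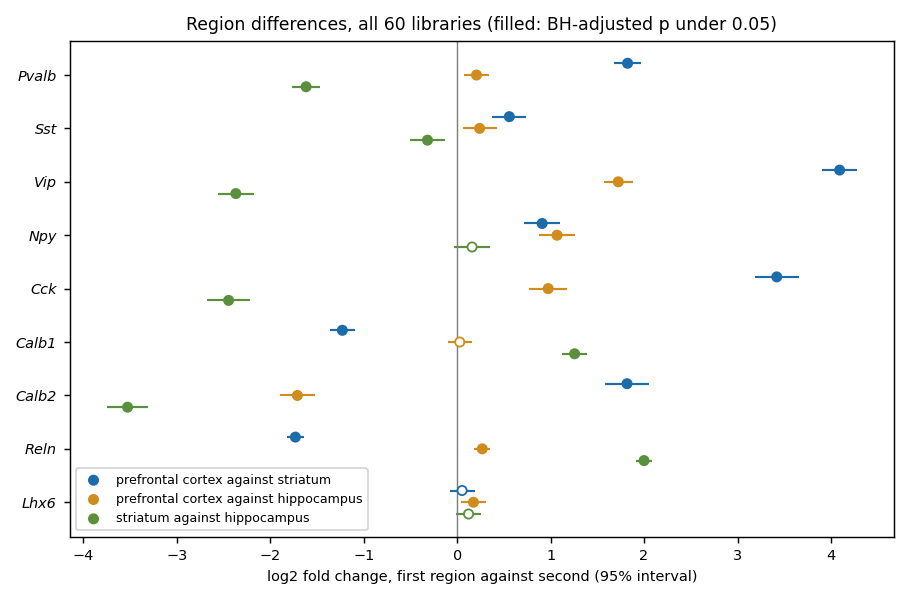
Log2 fold change of the 9 genes for the 3 pairs of regions (horizontal axis, first region against second; bars are 95% intervals of the 60-library fit), with filled points for adjusted p under 0.05. Vip reaches 4.09 between cortex and striatum and Calb2 falls to -3.53 between striatum and hippocampus, while the 3 Lhx6 points lie close to 0.

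The genes that go with interneurons were read from lists of their own, whose counts stand against the shares of all genes called for the same pair of regions (69.9%, 59.3% and 66.4%, given with the members' counts). Of the 5 genes of GABA synthesis and transport, 4 were lower and 1 was higher in cortex than in striatum: Slc32a1, the vesicular GABA transporter, had a mean of 6.47 RPKM in cortex and 23.3 in striatum, and Gad2, a GABA-synthesizing enzyme, 55.5 and 183. Striatal projection neurons are themselves GABAergic. Between cortex and hippocampus these genes were nearly level, with 1 called higher (Slc32a1, log2 0.21) and 1 lower (Gad1, log2 -0.18). The lower count was 2 without mouse 226, 259 or 286, in a DESeq2 fit it was also 2, and with limma or without TMM scaling 0 were higher and 2 lower. In WT mice on the normal diet alone 0 were lower.

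Of 22 other genes of the medial eminence programme, 11 were higher and 9 lower in cortex than in striatum. Lhx8, which directs striatal cholinergic fate, had a mean of 0.013 RPKM in cortex, 1.93 in striatum and 0.007 in hippocampus, and Nkx2-1, a patterning factor kept on by some striatal interneurons, 0.030, 1.57 and 0.147 RPKM. Both were thus practically striatal transcripts here, in contrast to Lhx6. Tac1, made by striatal projection neurons as well as interneurons, stood at 63.9 RPKM in striatum and 2.35 in hippocampus. Chodl, a marker of long-range Sst cells, was higher in cortex than in hippocampus (log2 1.06, adjusted p = 2.31e-05, edgeR) on no more than 20 counts per library in either.

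Among 12 genes of the caudal eminence programme, 8 were higher and 3 lower in cortex than in striatum, and 4 were higher and 5 lower in cortex than in hippocampus. Htr3a, the serotonin receptor subunit of caudal eminence cells, was 3.07-fold higher in cortex than in striatum. Slc17a8, the vesicular glutamate transporter also found in cholinergic cells, was 5.23-fold lower there. Lamp5, a marker of neurogliaform cells, was 5.93-fold higher in cortex than in hippocampus, and Prox1, also the marker of dentate granule cells, 10.4-fold lower. Nr2f2 was 4.83-fold lower in striatum than in hippocampus.

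The receptors of the 4 peptides also differed by region: of 13 listed, 10 were tested, and 8 of these were higher and 2 lower in cortex than in striatum. Cckbr, the main brain receptor of cholecystokinin, had a mean of 26.4 RPKM in cortex, 2.75 in striatum and 2.22 in hippocampus, so that it was highest in the region where Cck was. Npy2r, a presynaptic receptor of neuropeptide Y, had 1.55, 2.85 and 26.3 RPKM and was highest in the hippocampus. Sstr5, a somatostatin receptor, had a mean of 1.01 RPKM in the striatum and under 0.1 in both other regions, but the striatal mean pools unlike genotypes, with 1.05 to 2.29 RPKM in KO mice and 0.027 to 0.335 in 8 of 10 WT mice. In WT mice on the normal diet alone, 1 receptor gene rather than 2 was lower in cortex than in striatum.

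In the reelin pathway (6 genes), 3 were higher and 1 lower in cortex than in striatum: the receptor gene Lrp8 was 2.35-fold higher and the other receptor gene Vldlr 1.59-fold lower. The adaptor gene Dab1 was 1.67-fold lower in striatum than in hippocampus. Of 7 genes of the perineuronal net, the matrix that wraps Pvalb cells, 4 were higher and 1 lower in cortex than in striatum. The link protein gene Hapln4 was 7.07-fold higher there and Vcan 1.90-fold lower (2 genes were lower without mouse 226, 273 or 381), while Acan was 1.95-fold lower both in cortex and in striatum than in hippocampus. Over all genes tested the median log2 difference between cortex and striatum was -0.01, and it was 0.27 for the medial eminence list, 0.41 for the caudal list, 1.02 for the receptors, 0.03 for the reelin pathway and 0.23 for the net.

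The response of the markers to genotype and diet was then tested within each region, in edgeR quasi-likelihood fits of 20 libraries with 8 contrasts each. None of the 9 members passed the threshold in any of the 24 tests by region and contrast. Of these 216 values, 12 (5.56%) had an unadjusted p under 0.05 with edgeR, and the smallest adjusted p was 0.157. The share of all genes at this unadjusted cut differed by contrast, and the 8 contrasts of a region share mice. The 12 are therefore not read as more or fewer than the background. DESeq2 and limma called 0 members as well. The 12 values were 5 of Npy in cortex, 3 of Sst and 2 of Calb2 in hippocampus, and 2 interactions of Vip.

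For KO against WT over both diets, the share of all genes called was 0.673% in prefrontal cortex, 0.203% in striatum and 0.164% in hippocampus. On the normal diet alone the shares were 0.121%, 0.0601% and 0.0299%, and on the lacking diet 0.234%, 0.128% and 0.0672%, in the same order. KO lacking against WT normal mice gave 0.28%, 0.0826% and 0.0149%. The diet contrasts (over both genotypes, in WT, in KO) and the interaction called 0% of genes in each region. With such shares, 0 of 9 members is near the background. At an unadjusted p under 0.05, 3.28% of genes in cortex, 3.06% in striatum and 2.15% in hippocampus differed by diet over both genotypes (edgeR).

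Pvalb and Sst, the genes of the main medial eminence classes, were not called between genotypes in the prefrontal cortex. Pvalb was at 28.2, 31.0, 32.1, 32.1 and 38.0 RPKM in the 5 WT mice on the normal diet and at 28.3, 28.6, 29.4, 32.7 and 35.1 in those on the lacking diet. KO mice had 19.5, 27.8, 30.1, 33.6 and 34.1 RPKM on the normal and 23.7, 24.5, 28.5, 31.2 and 33.1 on the lacking diet. The groups overlapped, although 4 of 10 KO values lay below the lowest WT value. The log2 difference over both diets was -0.16 (95% interval -0.34 to 0.01, adjusted p = 0.390, edgeR).

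Cortical Sst stood at 90.2, 101.5, 111, 128 and 138 RPKM in WT normal mice, 69.2, 121, 124, 126 and 135 in WT lacking, 92.9, 123, 139, 150 and 156 in KO normal and 102, 110, 128, 138 and 163 in KO lacking mice. The 4 groups overlapped, although 5 of 10 KO values lay above the highest WT value. KO against WT gave a log2 difference of 0.17 (interval -0.04 to 0.37, adjusted p = 0.450, edgeR), and the lacking against the normal diet -0.02 (interval -0.22 to 0.19). For Pvalb the diet difference was -0.06 (interval -0.24 to 0.11). In the striatum, KO against WT over both diets was -0.06 for Pvalb (interval -0.25 to 0.14) and -0.21 for Sst (interval -0.51 to 0.08).

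**Figure D3:**
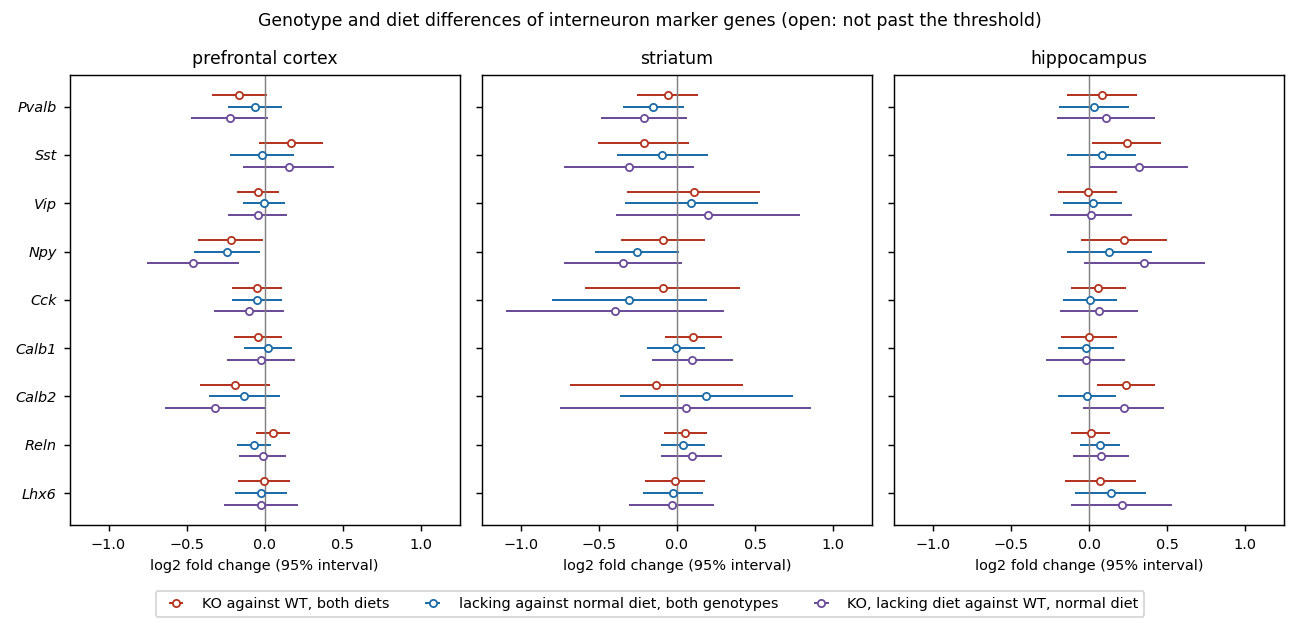
Log2 fold changes of the 9 genes (horizontal axis, with 95% intervals) in the 3 regions for KO against WT over both diets, for the lacking against the normal diet over both genotypes and for KO lacking against WT normal mice. All points are open (adjusted p of 0.05 or above); intervals are widest for Cck, Calb2 and Vip in the striatum.

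Npy in the prefrontal cortex was the member with the smallest unadjusted p. WT mice had 166, 178, 211, 215 and 247 RPKM on the normal diet and 136, 193, 218, 218 and 222 on the lacking diet. KO mice had 142, 179, 193, 226 and 273 RPKM on the normal diet and 110, 145, 158, 163 and 177 on the lacking diet. The KO lacking group was thus the low one, with 4 of its 5 values below the lowest WT normal value, while it overlapped each other group.

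Group means of Npy in cortex were 203 ± 32.1 RPKM (SD, n = 5) for WT normal, 198 ± 36.1 for WT lacking, 202 ± 49.3 for KO normal and 150.7 ± 25.3 for KO lacking mice. The log2 difference of KO lacking from WT normal mice was -0.46 (95% interval -0.76 to -0.16, adjusted p = 0.157, edgeR). From KO normal mice, within 1 batch, it was -0.45 (adjusted p = 0.911), and from WT lacking mice -0.42 (adjusted p = 0.229). The interaction was -0.41 (interval -0.83 to 0.01). These comparisons share the KO lacking group. Fitted on the 2 compared groups only, the first had an adjusted p of 0.0443, and the third had one of 0.0414 without mouse 226 of the WT lacking group, whose value of 136 RPKM was the lowest there.

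In the hippocampus, Sst and Calb2 were the members with an unadjusted p under 0.05 for KO against WT, neither past the adjusted threshold. Hippocampal Sst was at 70.3, 76.5, 80.6, 112 and 114 RPKM in WT normal, 67.2, 107, 115, 122 and 131 in WT lacking, 90.3, 110, 116, 145 and 148 in KO normal and 97.3, 100.5, 109, 117 and 133 in KO lacking mice. WT normal mice formed the low group, 3 of them below every KO value, and the other groups overlapped. KO against WT on the normal diet gave a log2 difference of 0.40 (95% interval 0.09 to 0.72, adjusted p = 0.653, edgeR) and over both diets 0.24 (interval 0.02 to 0.46).

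Hippocampal Calb2 was at 8.83, 10.2, 10.98, 11.1 and 11.8 RPKM in WT normal, 7.17, 11.8, 12.1, 12.9 and 13.1 in WT lacking, 11.8, 12.5, 13.2, 13.9 and 17.2 in KO normal and 11.2, 11.2, 12.0, 12.4 and 14.2 in KO lacking mice. On the normal diet 4 of 5 KO values lay above every WT value. The log2 difference there was 0.34 (interval 0.08 to 0.60, adjusted p = 0.653, edgeR), and over both diets 0.24 (interval 0.05 to 0.42, adjusted p = 0.949).

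Markers of oligodendrocytes, the myelinating cells, had lower median levels in KO than in WT mice in the hippocampus. The summed RPKM of 4 of them (Mbp, Mog, Mag and Mobp) was 384 to 447 in WT normal mice (median 433), 428 to 487 in WT lacking (435), 299.9 to 454 in KO normal (324) and 304 to 498 in KO lacking mice (335), so that the ranges overlapped. None of the 4 passed the threshold for KO against WT there, the nearest over both diets being Mobp (log2 -0.36, adjusted p = 0.443, edgeR), and 3 had an unadjusted p under 0.05. In the striatum the same sum had medians of 558 (WT normal), 533 (WT lacking), 477 (KO normal) and 476 RPKM (KO lacking). In the prefrontal cortex these were 178, 179, 173 and 174 RPKM, and ranges overlapped between genotypes in both regions. The part of the oligodendrocyte markers in the hippocampal Sst and Calb2 values was not tested.

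Vip was the member with an interaction at an unadjusted p under 0.05. Hippocampal Vip was at 11.1, 14.4, 14.9, 15.5 and 18.6 RPKM in WT normal, 11.1, 12.6, 13.0, 13.3 and 15.4 in WT lacking, 10.96, 12.3, 12.9, 14.1 and 14.5 in KO normal and 13.7, 14.4, 14.8, 15.2 and 16.3 in KO lacking mice. The lacking diet went with lower values in WT and higher values in KO mice, all groups overlapping. The interaction was 0.45 in log2 (interval 0.07 to 0.83, adjusted p = 0.514, edgeR). In the striatum, where Vip had as few as 20 counts, it was 0.90 (interval 0.05 to 1.76, adjusted p = 1.00).

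Reln, Lhx6 and Calb1 had genotype differences near 0. For Reln, KO against WT over both diets was at 0.05 in cortex (95% interval -0.05 to 0.16), 0.05 in striatum (-0.09 to 0.19) and 0.01 in hippocampus (-0.12 to 0.14). Lhx6 was at 0.00 (-0.17 to 0.16), -0.01 (-0.20 to 0.18) and 0.07 (-0.16 to 0.30), and Calb1 at -0.04, 0.11 and 0.00. Striatal Cck had larger values with wide intervals: the diet difference was -0.31 over both genotypes (interval -0.80 to 0.19) and -0.52 in WT mice (interval -1.22 to 0.18, adjusted p = 0.9995, edgeR), and KO lacking differed from WT normal mice by -0.40 (interval -1.10 to 0.30). Group means of Cck in that region were 24.5 ± 3.65, 17.5 ± 7.06, 19.4 ± 8.24 and 18.2 ± 12.9 RPKM (SD, n = 5) in WT normal, WT lacking, KO normal and KO lacking mice.

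Whether an effect differed between regions was tested in the 60-library fit. Of 54 such differences for the members, 0 were called and 5 had an unadjusted p under 0.05 with edgeR, the smallest adjusted p being 0.540. The share of all genes at this unadjusted cut is not given here, so the 5 are named as descriptions only. For the genotype effect, 0.00718% of all genes were called between prefrontal cortex and hippocampus and 0% for the other pairs, and for the diet effect 0% for each pair. The 5 were Sst, whose genotype effect was 0.38 higher in cortex than in striatum and 0.44 lower in striatum than in hippocampus, Npy and Calb2, whose genotype effects were 0.43 and 0.42 lower in cortex than in hippocampus, and Npy again for diet, 0.40 lower in striatum than in hippocampus.

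Of the other interneuron lists, 2 genes passed the threshold in a genotype contrast, both over both diets. Nos1, the neuronal nitric oxide synthase of Sst and Npy cells, stood in the prefrontal cortex at 6.43, 7.50, 7.69, 7.82 and 8.07 RPKM in WT normal, 6.65, 6.99, 7.32, 7.67 and 9.60 in WT lacking, 6.27, 6.56, 6.68, 6.70 and 7.03 in KO normal and 5.84, 5.95, 6.15, 6.61 and 6.65 in KO lacking mice. KO values were low and overlapped the lower WT values. The log2 difference was -0.25 (SE 0.059, adjusted p = 0.0358, edgeR); it was -0.20 in a limma fit (adjusted p = 0.108) and -0.23 without TMM scaling (adjusted p = 0.0594), and the call was lost in 11 of 20 fits without 1 mouse (adjusted p from 0.00856 to 0.0887), whereas 3 listed genes passed without mouse 226. Of the 20 medial eminence genes tested there, this was the only one called, and 4 had an unadjusted p under 0.05 (20%, against 14.1% of all genes).

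Single markers of other cells were also called in the same contrast in the prefrontal cortex. Slc1a3, an astrocyte glutamate transporter, was lower in KO mice by 0.33 in log2 (adjusted p = 0.00678, edgeR) and the microglial receptor P2ry12 by 0.38 (adjusted p = 0.0172), 1 gene each of 6 and 5 on their lists. The summed RPKM of the 5 microglial markers lay between 80.0 and 95.5 in WT and between 74.3 and 86.5 in KO libraries, and that of the 6 astrocyte markers between 889 and 1146 in WT and between 818 and 1020 in KO libraries. The summed RPKM of the excitatory markers was 356 to 402 in WT and 370 to 421 in KO libraries. Each of these sums overlapped between genotypes. Mean library totals in cortex were 12063601 and 11785690 counts in the KO groups and 10183628 and 9886281 in the WT groups. The part of these in the Npy and Nos1 values was not tested.

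Sstr5 in the striatum (chr17:25489875-25497288) was the other listed gene, higher in KO mice. KO mice had 1.05, 1.41, 1.64, 1.91 and 2.29 RPKM on the normal and 1.14, 1.74, 1.84, 1.88 and 1.96 on the lacking diet. WT mice had 0.027, 0.035, 0.076, 0.335 and 1.32 RPKM on the normal and 0.088, 0.093, 0.125, 0.209 and 0.992 on the lacking diet. Thus 8 of 10 WT mice lay far below every KO mouse, mouse 317 (35 counts) lay within the KO range and mouse 241 (34 counts) just under it. The log2 difference was 2.42 (SE 0.414, adjusted p = 0.00332, edgeR), with a range of 2.24 to 3.23 over 20 fits without 1 mouse. Sstr5 lies 5.1 Mb from Glo1 (chr17:30592861-30612659, GRCm38.p6). In cortex and hippocampus no library had more than 5 counts of it, so no difference was detectable there.

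**Figure D4:**
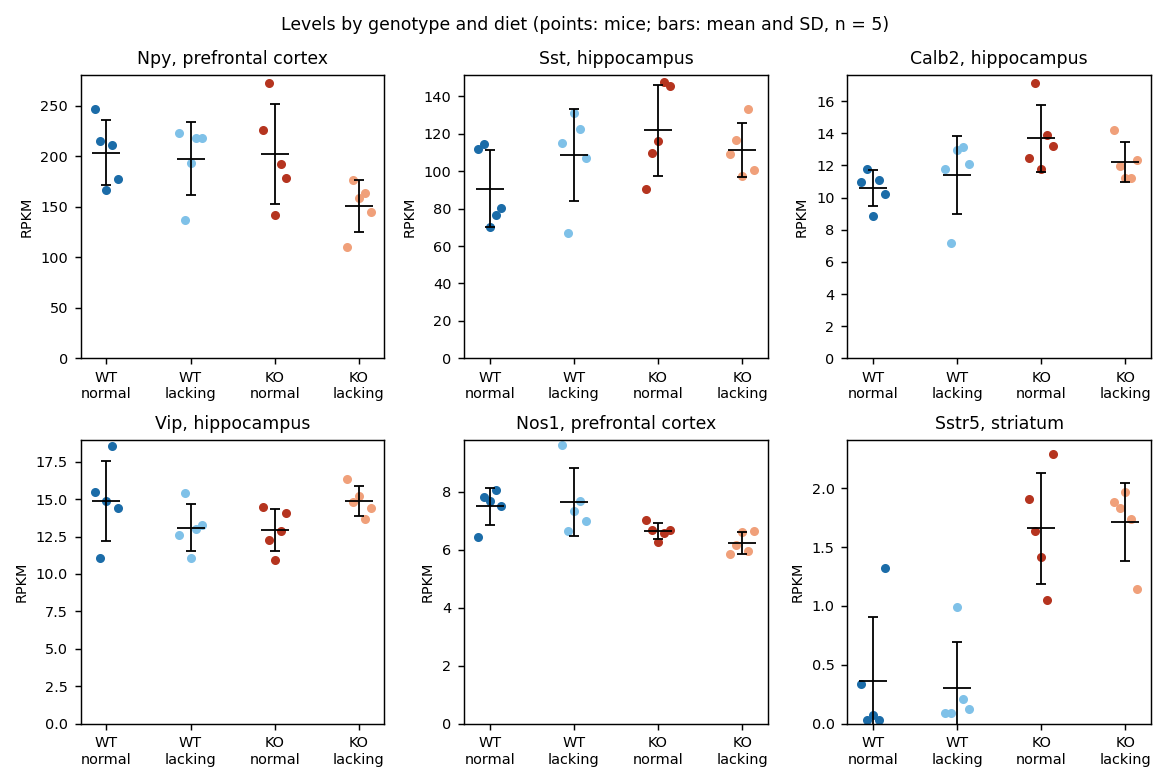
RPKM (linear axis from 0) by genotype and diet for Npy, Sst, Calb2, Vip, Nos1 and Sstr5, each in the region named above its panel; points are mice, bars mean and SD of 5. Npy is low in KO lacking mice, Sst and Calb2 are low in WT normal mice, and Sstr5 is near 0 in 8 of 10 WT mice and above 1 RPKM in all KO mice.

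Mice of the same group differed in several markers together. Correlations were computed on log2 CPM (counts scaled to the library total) after subtracting group means, over 20 mice per region, with 100000 permutations within groups and BH adjustment over 108 pairs. Of 36 pairs per region, 6 passed in cortex, 3 in striatum and 2 in hippocampus. The share among pairs of other genes was not computed, so these counts are not read as a trait of the members. On log2(RPKM + 1) the numbers were 6, 4 and 2.

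Sst and Cck were correlated in all 3 regions. Pearson's r was 0.81 in cortex (Spearman's rho 0.70, adjusted permutation p = 0.0146 for r), 0.68 in striatum (rho 0.73, adjusted p = 0.0305) and 0.82 in hippocampus (rho 0.79, adjusted p = 0.00486). Without the 2 mice farthest from the median Sst, r was 0.65, 0.63 and 0.71. Within the KO batch r was 0.87, 0.75 and 0.79, and within the WT batch 0.76, 0.59 and 0.84.

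Sst and Calb1 ran against each other in cortex by r alone (r = -0.77, adjusted permutation p = 0.0296; rho -0.59, adjusted p = 0.119) and by both measures in striatum (r = -0.76, rho -0.76, adjusted p = 0.0149). In the hippocampus r was -0.44 (adjusted p = 0.324). Without the 2 farthest mice r was -0.62, -0.66 and -0.25. Within batches the first was -0.72 in KO and -0.81 in WT mice, and the second -0.84 and -0.68.

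Pvalb and Npy went together in cortex (r = 0.74, rho 0.76, adjusted permutation p = 0.0149) and hippocampus (r = 0.82, rho 0.82, adjusted p = 0.00486) and had an r of 0.11 in striatum. Without the 2 farthest mice the first 2 values were 0.69 and 0.85, and within batches they were 0.84 in KO and 0.61 in WT mice for cortex and 0.81 and 0.83 for hippocampus. In cortex, Vip and Calb1 also passed (r = 0.85, rho 0.76, adjusted p = 0.00576; 0.81 without 2 mice, 0.88 in KO and 0.82 in WT), as did Npy and Cck (r = 0.69, rho 0.75, adjusted p = 0.0359; 0.66, 0.86 and 0.50). Pvalb and Cck did so there by r alone (r = 0.66, adjusted p = 0.0429; rho 0.56, adjusted p = 0.119; 0.51, 0.86 and 0.38). In striatum, Cck and Calb1 passed by r (r = -0.73, adjusted p = 0.0201; rho -0.63, adjusted p = 0.0912; -0.61, -0.72 and -0.78).

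Measures of the whole library moved with these genes. The first principal component of the other genes, taken within groups and signed so that Sst was positive, held 16% of the variance in cortex, 25.5% in striatum and 25.9% in hippocampus. It correlated with Sst at 0.80, 0.84 and 0.71 (adjusted permutation p = 0.0168, 0.00280 and 0.0339 over 84 relations; rho 0.58, 0.79 and 0.66, the cortical rho with an adjusted p of 0.110; without the 2 farthest mice 0.64, 0.80 and 0.59) and with Calb1 at -0.93, -0.75 and -0.67 (adjusted p = 0.000840, 0.00689 and 0.167; rho -0.85, -0.85 and -0.58; without 2 mice -0.89, -0.64 and -0.54). In the hippocampus the relation with Sst was 0.19 within the KO batch and 0.90 within the WT batch, so that it did not hold in both. By r, 3 other members passed as well. Vip did so in cortex (r = -0.79, rho -0.72, adjusted p = 0.00689) and in hippocampus (r = -0.67, rho -0.50, adjusted p = 0.0372), where r was 0.02 within the KO and -0.75 within the WT batch. Cck passed in hippocampus (r = 0.73, rho 0.63, adjusted p = 0.0232; 0.46 in KO and 0.93 in WT) and Reln in striatum (r = 0.70, rho 0.62, adjusted p = 0.0339; 0.81 and 0.46). Without the 2 farthest mice these 4 values were -0.74, -0.45, 0.44 and 0.60. RIN passed with none of the 9 genes in any region, the nearest being Lhx6 in hippocampus (r = 0.54, rho 0.55, adjusted p = 0.138). With the first principal component itself, RIN had an r of -0.39 in cortex, -0.31 in striatum and -0.39 in hippocampus. None of these passed (adjusted permutation p = 0.260, 0.472 and 0.260), and the part of RIN in the shared variation was not tested further.

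Cck in the striatum followed the summed excitatory neuron markers Slc17a7, Neurod6, Neurod2 and Tbr1, whose sum ran from 14.2 to 86.8 RPKM there against 356 to 421 in cortex. The lowest Cck values, 6.21 and 6.81 RPKM, came with sums of 18.1 and 14.2, and the highest, 39.7 RPKM, with the highest sum. Pearson's r of the log2 values within groups was 0.94 (rho 0.92, permutation p = 1e-05 for r, the smallest these permutations can give, adjusted p = 0.000840), 0.90 without the 2 farthest mice, 0.94 within the KO and 0.96 within the WT batch. The same sum went with Pvalb (r = 0.73, rho 0.72, adjusted p = 0.0153) and Npy (r = 0.69, rho 0.66, adjusted p = 0.0168) in the hippocampus, at 0.64 and 0.63 without 2 mice; within the KO and WT batches these were 0.85 and 0.63 for Pvalb and 0.80 and 0.63 for Npy.

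**Figure D5:**
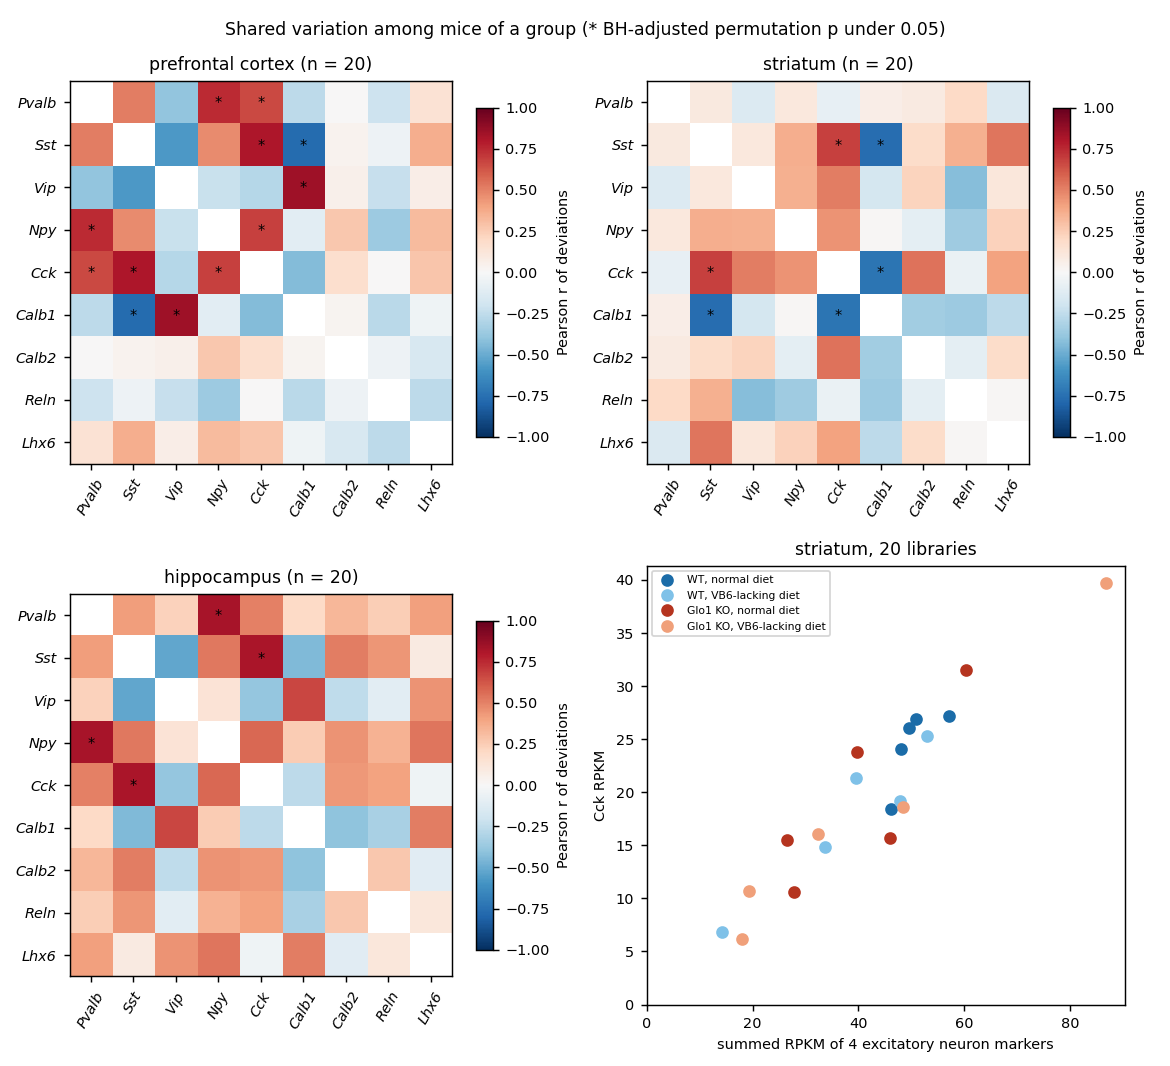
Heat maps of Pearson's r (colour, -1 to 1) between the 9 genes among 20 mice of a region after removal of group means, with asterisks at adjusted p under 0.05, and a scatter of Cck RPKM against the summed RPKM of 4 excitatory neuron markers in the 20 striatal libraries. Sst and Cck are marked in each region, and striatal Cck is higher where the sum is higher.

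Over all 60 libraries, the genes whose deviations from the group mean were most like those of each member were found among the 13929 other genes tested; these r values are descriptions, and the points share mice and libraries. Sst was most like Sepw1 (r = 0.91), Aes and Mlf2, Npy most like Gnb2 (0.90), Tspan7 and Dynlrb1, and Calb1 most like Dnaja2 (0.91), Cops2 and Fkbp3. Cck was most like Galnt9 (0.90), Nptxr and Slc17a7, the last with 0.94 in striatum and 0.37 in cortex. Vip was most like Bdnf (0.79), Nrp2 and Nrn1, and Pvalb most like Ckb (0.70), Dtnbp1 and Smarcd1. Likeness was lower for Reln (Dync1h1, 0.66), Lhx6 (Mkrn1, 0.63) and Calb2 (Ptprk, 0.61). For Calb2 and Ptprk, r was -0.06 in cortex, 0.67 in striatum and 0.72 in hippocampus.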

How the data were processed

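RNA from 3 brain regions of 20 mice (2 µg of total RNA, poly(A) selection, 75-base single reads, per the labels' protocols) gave 60 libraries. The authors deposited gene counts and RPKM values. Per the submitters' processing notes, these involved STAR 2.7.1a, HTSeq 0.9.1 and build mm10; the annotation and the strand setting were not given in the sources used here. The deposited RPKM equalled count over gene length and library total for 18514 genes with counts (implied lengths whole within 0.001 bases). The labels also give a VB6 measurement of each mouse, whose material they do not name. Its median was 3.78 ng/µl in both groups on the lacking diet, and 59.94 (WT) and 66.71 ng/µl (KO) on the normal diet.

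Counts were tested with edgeR 4.0.16 (TMM, filterByExpr with a minimum count of 10 and total of 15, quasi-likelihood) in R 4.3.3, with 1 fit of 20 libraries per region for genotype and diet and 1 fit of 60 libraries for regions. Adjusted p-values are Benjamini-Hochberg over all genes tested (13223, 13311 and 13393 genes by region, 13930 in all), with a threshold of 0.05. The tests were checked on simulated data. Intervals are 95%. Correlations used Python 3.11.15 and NumPy 2.4.6 on log2 CPM with a prior count of 2. Alternatives were DESeq2 1.42.0, limma 3.58.1 on log2(RPKM + 1), no TMM, no filter, RIN as a covariate, only the compared groups, the mouse as a block, WT mice on the normal diet only, and each mouse left out.

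The 3 libraries of a mouse share the animal, per the labels, so the regions are paired. Deviations from group means over genes had a mean correlation of 0.0468 over 60 same-mouse pairs and -0.0111 over 240 other pairs. Subtracting the mean of the same 5 mice ties the second value to the first, so it is not a separate baseline. The 5 mice of a group are separate animals. Replicates differed by more than sampling noise in all 120 pairs.

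The members and the gene lists were chosen with earlier results of these data known. Named genes were all 9 members, up to 2 genes per list and pair of regions with the largest absolute log2 difference among those called, up to 3 listed genes per genotype or diet comparison by smallest p, and the 3 genes most like each member. The measures of whole libraries were chosen after seeing the data. Promoters and the coordinates of Glo1 and Sstr5 are RefSeq's (GRCm38.p6), and gene coordinates GENCODE M21's. Some cell type markers are not reported here and were left out of the marker sums.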

Additional observations from a re-analysis of the deposited data

Results flagged for a closer look

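Among the 108 groups of 5 values (9 genes, 12 groups), 9 had 1 library whose gap to its nearest neighbour was over 0.71 of the group's range; chance flags about 5% of groups. Mouse 241 (WT, lacking diet) stood apart in the prefrontal cortex with the highest Calb1 (64.0 RPKM against 44.9 to 49.7, a gap of 0.75 of the range) and the lowest Sst (69.2 against 121 to 135, 0.787). Mouse 226 of the same group had the lowest hippocampal Calb2 (7.17 RPKM against 11.8 to 13.1, 0.769) and Cck (75.2 against 119 to 131, 0.785). Mouse 273 (WT, normal diet) had the lowest striatal Sst (54.1 RPKM against 92.3 to 103, 0.783) and the highest hippocampal Reln (3.07 against 2.81 to 2.88, 0.712). Single values stood apart for cortical Cck in mouse 368 (KO, normal diet; 159.8 RPKM against 223 to 240.3, 0.785), for cortical Lhx6 in mouse 225 (WT, lacking diet; 3.35 against 2.88 to 2.97, 0.805) and for striatal Pvalb in mouse 246 (WT, lacking diet; 10.3 against 7.32 to 7.89, 0.806).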

How the results depend on the processing

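Of the 216 member values for genotype and diet, recomputed in 4185 fits, 1 passed the threshold under another setting and 1 with a mouse left out, both of Npy in the prefrontal cortex. For KO lacking against WT normal mice, the number of members past the threshold was 1 when these groups alone were fitted. For KO against WT on the lacking diet it ranged from 0 to 1 over 10 fits without 1 mouse. Between cortex and hippocampus it was 5 without TMM factors: Pvalb (0.15, adjusted p = 0.0526), Sst (0.18, adjusted p = 0.109) and Lhx6 (0.12, adjusted p = 0.129, edgeR) no longer passed. Other losses in this pair were Sst and Lhx6 with limma, and Pvalb and Lhx6 in WT normal mice. The Calb1 difference between these regions changed sign, to -0.0282 with limma, -0.0302 without TMM and -0.0566 in WT normal mice, and ranged from -0.0021 to 0.0608 over 20 fits without 1 mouse. The Sst difference between striatum and hippocampus was 0.0259 in WT normal mice. The cause was not tested.

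With the mouse as a replicate block, the pairing left 8, 8 and 7 members past the threshold for the 3 pairs of regions (Lhx6 between cortex and hippocampus at 0.18, adjusted p = 0.0148, edgeR) and changed no member's call.

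Counts were lowest for Vip and Calb2 in the striatum, whose libraries held as few as 20 and 5. The 95% intervals for KO against WT there reach 0.801 to either side on the normal diet and 0.756 on the lacking diet. Over both diets they reach 0.553. Striatal Cck, with at least 42 counts, had a diet interval over both genotypes (-0.80 to 0.19) of a width similar to the last. What sets these widths was not tested.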
